A study of Mus musculus with 6 samples.

Results

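The 6 genes described here encode 4 cytokines, IL-10 (Il10), IL-21 (Il21), IL-22 (Il22) and IL-24 (Il24), and both chains of the IL-10 receptor (Il10ra and Il10rb). They were taken by gene name from a table of 34745 genes, and each name matched a single gene. Expression was measured by RNA-seq in 6 libraries of mouse CD4 T cells, 3 from cultures given PM2.5 and 3 from cultures given PBS. PM2.5 denotes airborne particles of under 2.5 µm, and the suspension was added at 100 µg/ml once stimulation had run for 6 h, with PBS added in its place in the other cultures. All cultures held splenic CD4 T cells, labelled naive, of female C57BL/6 mice aged 6 weeks. All cells were stimulated for 4 days on plates coated with antibodies to CD3 and CD28 under Th17 conditions, which were IL-6 (20 ng/ml), IL-23 (10 ng/ml), TGF-beta (2 ng/ml) and IL-2 (5 ng/ml) with antibodies to IFN-gamma and IL-4 (5 µg/ml each). Whether the 3 libraries of a group came from different cultures or mice is not stated, and the p-values below reflect only how far these libraries spread, which may be technical.

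IL-10 restrains inflammation and is made by many T helper cells, Th17 cells included, and its receptor pairs the ligand-binding chain IL-10RA with the shared chain IL-10RB. IL-22 and IL-24 belong to the same structural family but signal mainly to epithelial cells, IL-22 through IL-22RA1 with IL-10RB and IL-24 through receptors that contain IL-20RB. IL-21 belongs to a different family, is made by Th17 and follicular helper cells, and acts back on T cells through IL-21R and the common gamma chain, with STAT3 as its main messenger.

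The genes moved in different directions. Of the 6 genes, 5 passed the test used throughout (edgeR's quasi-likelihood fit, adjusted p under 0.05), 2 higher in PM2.5 (Il21 and Il10ra) and 3 lower (Il22, Il24 and Il10rb), and Il10 did not pass. Over all 12967 genes tested 70.6% passed, 35.2% higher and 35.3% lower, so the share of the 6 genes that passed is close to this background. The median log2 fold change was -0.19 over the 6 genes and -0.01 over all genes tested. A change of 2-fold or more was called for 3 of the 6 genes (Il22, Il24 and Il10ra), against 18.9% of all genes tested. The groups did not overlap for 5 of the 6 genes, against 74.9% of all genes. The size of the change sets the genes apart: 5.95% of all genes tested had a larger absolute change than Il10ra, 6.22% than Il24, 16.9% than Il22, 21.9% than Il21, 56.1% than Il10rb and 98.2% than Il10.

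**Figure D1:**
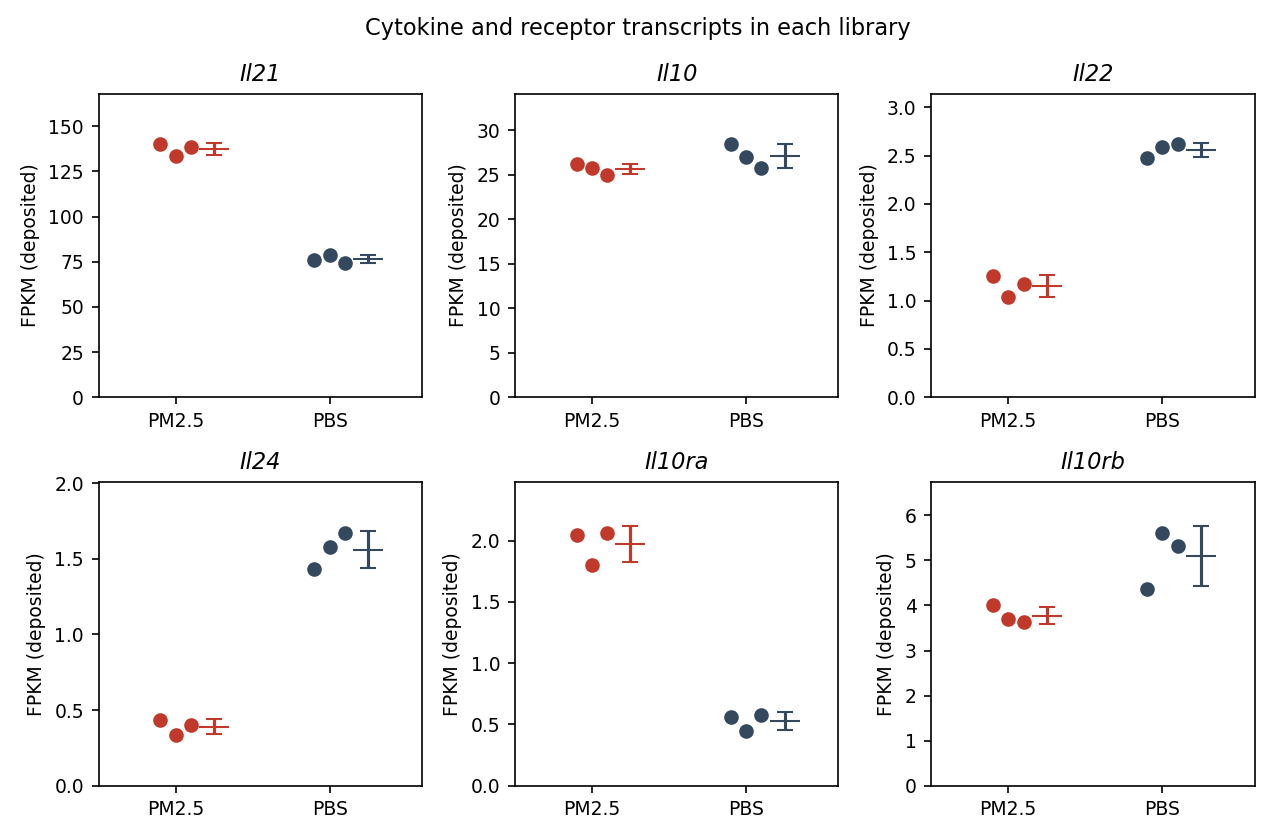
Each panel plots the deposited FPKM of 1 gene, with its own linear axis from 0, for the 3 PM2.5 libraries (left, red points) and the 3 PBS libraries (right, dark points), and the bar beside them gives the mean with SD. The groups are apart for Il21, Il22, Il24, Il10ra and Il10rb and overlap for Il10, where PM2.5 libraries lie between 25.01 and 26.2 FPKM and PBS libraries between 25.7 and 28.4 FPKM.

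Library totals were 25397965 to 27215853 counts in PM2.5 and 19511561 to 22353131 counts in PBS. Where a gene had 0 counts, its level could still reach 3 counts, which is 0.110 to 0.118 CPM (counts scaled to the library total) in PM2.5 and 0.134 to 0.154 CPM in PBS, and these limits cover counting error only. The summed T cell markers (7 genes, among them Cd3e and Cd4) stood at 2795 to 2835 CPM in PM2.5 and 3272 to 3301 CPM in PBS. The summed Th17 markers (5 genes, among them Il17a and Il17f) stood at 2426 to 2898 CPM in PM2.5 and 3292 to 3359 CPM in PBS. Of the T cell markers 5 fell and 2 rose, and of the Th17 markers 4 fell and 1 (Il23r) did not pass. Over all genes tested 35.3% fell and 35.2% rose. The call of Il17f was lost in 6 of 12 alternatives (adjusted p = 0.0727 to 0.113). In bulk RNA, fewer cells of a type and less RNA per cell cannot be told apart.

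Il21 (ENSMUSG00000027718, mm10 chromosome 3, 37222759 to 37232636, minus strand) was the most abundant of the 4 cytokine transcripts and the only one of them that rose. It had 21903, 20065 and 20240 counts in the PM2.5 libraries, against 9659, 8821 and 9543 counts in the PBS libraries. In deposited FPKM these were 140.1, 134 and 139 in PM2.5 and 75.9, 78.7 and 74.3 in PBS. Every PM2.5 library was far above every PBS library, with a coefficient of variation of 2.42% within the PM2.5 group and 3.39% within the PBS group. The log2 fold change was 0.91 (SE 0.03, 95% interval 0.84 to 0.99, adjusted p = 2.61e-09 in edgeR's quasi-likelihood test), a 1.88-fold rise. An antisense gene, Gm12534, lies within Il21, and since the strand setting of the counting is not stated, reads from it cannot be told apart from those of Il21.

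Il21 lies beside Il2, the gene of the T cell growth factor IL-2, 102 kb away between lower gene coordinates. Il2 had 8502, 8367 and 6901 counts in PM2.5, against 46, 41 and 38 counts in PBS, which is 7.33 on the log2 scale (SE 0.11, adjusted p = 6.77e-10 by edgeR), so both cytokine genes of this locus rose and did so by very different amounts. Among protein-coding neighbours by lower coordinate within 200 kb of Il21, 6 were tested, of which 2 rose, 1 fell and 3 did not pass. The rises were Il2 and the ATPase gene Spata5 (1.02), and the fall was Bbs12, of a cilium complex (-1.35). Over all genes tested 70.6% passed. The sequences just upstream of the Il21 and Il2 starts are shown because the genes are neighbours that rose together. They are RefSeq promoter windows on GRCm38.p6, the assembly behind mm10, on the minus strand, chr3:37232637-37232886 for Il21 (250 bases) and chr3:37125960-37126204 for Il2 (245 bases, since the table's gene starts slightly upstream of the RefSeq start). Capitals mark GGAAA on either strand, the core of the sites that NFAT factors bind.
Il21: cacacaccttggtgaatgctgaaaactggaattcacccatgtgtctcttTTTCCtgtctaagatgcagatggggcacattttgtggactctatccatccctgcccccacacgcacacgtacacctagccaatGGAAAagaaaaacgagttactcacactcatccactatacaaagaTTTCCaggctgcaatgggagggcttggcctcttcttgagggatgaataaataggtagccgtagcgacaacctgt
Il2: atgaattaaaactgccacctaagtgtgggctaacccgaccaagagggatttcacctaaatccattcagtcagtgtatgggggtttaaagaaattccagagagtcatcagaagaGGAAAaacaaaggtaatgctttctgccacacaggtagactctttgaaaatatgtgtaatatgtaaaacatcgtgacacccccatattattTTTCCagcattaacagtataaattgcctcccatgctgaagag
GGAAA occurred 3 times in the Il21 window and 2 times in the Il2 window. It is a common word: 55.6% of 32851 mouse promoter windows of 250 bases hold it on at least 1 strand. The core of the aryl hydrocarbon receptor site, GCGTG, occurred 1 time in the Il21 window and not in that of Il2, against 28.2% of all windows. TATAAA occurred 1 time in the Il2 window and not in that of Il21, against 12.4% of all windows. The letters TGANTCA of AP-1 (6.75% of all windows) and TTCNNNGAA of STAT factors (7.02%) occurred in neither. None of the matches found overlapped another.

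**Figure D2:**
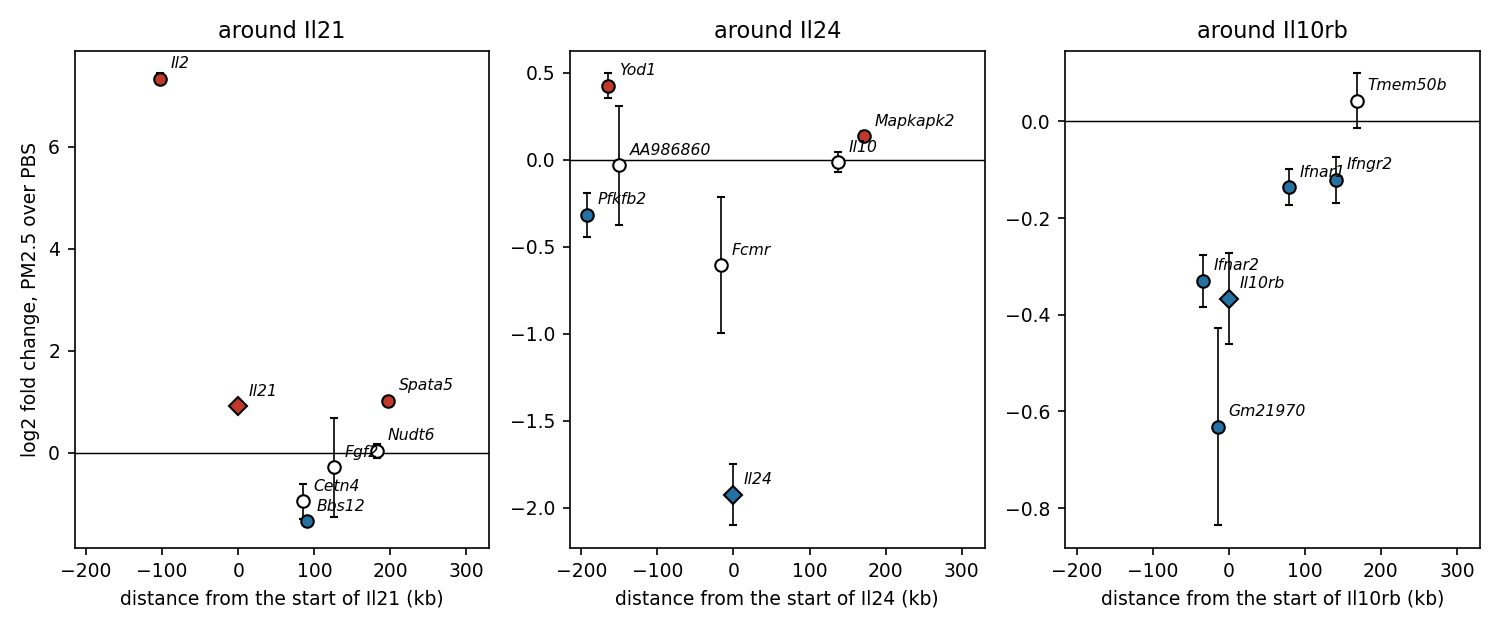
Log2 fold change (PM2.5 over PBS, bars are SE) of the tested protein-coding genes around Il21, Il24 and Il10rb (diamonds), plotted by the distance in kb between lower gene coordinates. Red and blue points passed the adjusted p of 0.05 upwards and downwards and open points did not. Il2 at 7.33 stands far above Il21 at 0.91, Il24 at -1.93 lies apart from Il10 at -0.01, and the neighbours of Il10rb cover -0.63 to 0.04.

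The receptor of IL-21 was abundant in both groups. Il21r, the ligand-specific chain (ENSMUSG00000030745), had 86.6, 77.3 and 87.8 FPKM in PM2.5, against 60.2, 61.5 and 60.1 FPKM in PBS. It rose by 0.53 on the log2 scale (SE 0.05, adjusted p = 4.37e-06 by edgeR), and the groups did not overlap. Il2rg, the common gamma chain, fell slightly, with means of 489 ± 2.94 CPM in PM2.5 and 558 ± 13.9 CPM in PBS (SD, n = 3 each; log2 fold change -0.19, adjusted p = 0.000126 by edgeR). Transcripts of the ligand and of its specific receptor chain therefore both rose, and that of the shared chain fell.

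Il10 (ENSMUSG00000016529, mm10 chromosome 1, 131019845 to 131024974, plus strand) was the second most abundant of the 4 cytokine transcripts and did not pass the test. It had 933, 880 and 832 counts in PM2.5, against 825, 689 and 754 counts in PBS. In FPKM this was 26.2, 25.7 and 25.01 in PM2.5 and 28.4, 27.0 and 25.7 in PBS. The groups overlapped, since the highest PM2.5 library lay above the lowest PBS library. The log2 fold change was -0.01 (SE 0.06, adjusted p = 0.841 by edgeR), with a 95% interval of -0.14 to 0.11. Like the p-values, this interval reflects only how far these libraries spread, which may be technical. Among the alternatives the log2 fold change ranged from -0.08 to 0.02, and Il10 did not pass in any of them.

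Il24 (ENSMUSG00000026420, mm10 chromosome 1, 130882074 to 130887454, minus strand) lies 138 kb from Il10 by lower coordinate, in the same cytokine cluster, and fell. It had 27, 20 and 23 counts in PM2.5, against 72, 70 and 85 counts in PBS. In FPKM this was 0.437, 0.337 and 0.399 in PM2.5 and 1.43, 1.58 and 1.67 in PBS. All PM2.5 libraries were well below all PBS libraries although the PM2.5 libraries were deeper. The log2 fold change was -1.93 (SE 0.17, 95% interval -2.32 to -1.54, adjusted p = 3.41e-06 by edgeR), a 3.80-fold fall. The spread within groups was 12.8% in PM2.5 and 7.61% in PBS, below the 20.7% and 11.5% that counting error alone gives at these depths. On log2(FPKM + 1), which draws low values together, the change was -0.88.

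The other genes of this cluster were nearly silent. Il19 had 1 count over the PM2.5 libraries and 0 counts over the PBS libraries, and Il20 had 0 counts in all 6. Of the tested neighbours of Il10 other than Il24, Mapkapk2, a kinase of the p38 stress pathway, rose slightly (0.13), while Dyrk3 (a kinase, -0.71) and Rassf5 (a regulator of T cell adhesion, -0.99) fell and the translation factor gene Eif2d (-0.09) and the IgM receptor gene Fcmr (-0.60) did not pass. The adjusted p-values of the 3 that passed were 0.00163, 4.67e-06 and 3.47e-08 by edgeR.

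Il22 (ENSMUSG00000074695, mm10 chromosome 10, 118204942 to 118210047, plus strand) fell as well. It had 38, 30 and 33 counts in PM2.5, against 61, 56 and 65 counts in PBS. In FPKM this was 1.26, 1.03 and 1.17 in PM2.5 and 2.48, 2.59 and 2.62 in PBS. The PM2.5 libraries lay clearly under the PBS libraries, with no overlap. The log2 fold change was -1.08 (SE 0.16, 95% interval -1.44 to -0.72, adjusted p = 0.000155 by edgeR), a 2.12-fold fall. The spread within groups was 9.72% in PM2.5 and 2.70% in PBS, again below the counting error of 17.2% and 12.8%. For scale, the signature Th17 cytokine Il17a averaged 423 ± 17.4 CPM in PM2.5 and 464 ± 10.6 CPM in PBS, where Il22 averaged 1.31 ± 0.127 and 2.78 ± 0.075 CPM (SD, n = 3 each).

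Il22 has a near-identical copy on the same chromosome, Iltifb, with which it can share reads. Their transcripts in GENCODE M21 were identical at 1081 of 1110 aligned bases (97.4%). Iltifb had 10, 2 and 2 counts in PM2.5, against 7, 3 and 2 counts in PBS, too few to be tested. With the counts of both genes summed, an alternative chosen after the values were seen, the log2 fold change was -0.99 (adjusted p = 0.000521 by edgeR, against 1.64e-05 to 0.00104 among the planned and added alternatives). The window upstream of Il22 is also from RefSeq (GRCm38.p6, plus strand, chr10:118204714-118204941, 228 bases up to the table's gene start). It is shown, with GGAAA again in capitals, since Il22 is the other of the 6 genes with a promoter window.
Il22: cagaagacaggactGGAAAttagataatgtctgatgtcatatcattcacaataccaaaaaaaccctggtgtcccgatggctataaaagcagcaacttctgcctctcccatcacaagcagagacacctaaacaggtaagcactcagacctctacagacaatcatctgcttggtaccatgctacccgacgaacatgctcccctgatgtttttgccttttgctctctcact
It holds GGAAA 1 time, TATAAA 1 time (148 bases before its end), and no match to the other letters given above. The windows differ in length, and whether their matches bear on the direction of change was not tested. Among the 6 genes, the promoter table matched Il21 and Il22, and Il10, Il24, Il10ra and Il10rb are named only.

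Summed markers of other lymphocytes that can make IL-22 were lower in PM2.5, as were those of T cells and Th17 cells. The summed CD8 and gamma-delta T cell markers (7 genes) stood at 29.5 to 32.7 CPM in PM2.5 and 84.9 to 88.4 CPM in PBS, and 5 of the 6 tested fell, with 1 that rose (Cd8b1). The summed NK cell markers (6 genes) stood at 17.4 to 17.8 CPM in PM2.5 and 54.5 to 66.9 CPM in PBS, where the sum was mostly Klrd1. Of the 4 tested, 3 fell and 1 rose (Eomes), and the defining NK receptor gene Ncr1 had 0 counts in all libraries. Over all genes tested 35.3% fell. The part of these lymphocytes in the falls of Il22 and Il24 was not tested. Markers of myeloid cells were low throughout, at 2.94 to 3.52 CPM in PM2.5 and 4.97 to 6.27 CPM in PBS for macrophages and monocytes, with Lyz2 at 0 counts, so the sum was mostly Cd68. Dendritic cell markers were at 2.56 to 3.50 CPM in PM2.5 and 0.948 to 1.30 CPM in PBS, with Clec9a and Siglech at 0 counts. Neutrophil markers were at 0.551 to 0.689 CPM in PM2.5 and 5.28 to 6.27 CPM in PBS, nearly all of it Ly6g, with S100a8, S100a9, Elane and Camp at 0 counts. B cell markers were at 20.7 to 21.6 CPM in PM2.5 and 4.41 to 5.51 CPM in PBS, mostly Ebf1, with Ms4a1 at 0 counts.

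The receptor chains of IL-10 moved in opposite directions. Il10ra (ENSMUSG00000032089, mm10 chromosome 9, 45253837 to 45269149, minus strand), the ligand-binding chain, had 461, 389 and 434 counts in PM2.5, against 102, 72 and 107 counts in PBS. In FPKM this was 2.05, 1.80 and 2.07 in PM2.5 and 0.557, 0.446 and 0.579 in PBS. The lowest PM2.5 library was thus far above the highest PBS library. The log2 fold change was 1.96 (SE 0.11, 95% interval 1.72 to 2.20, adjusted p = 7.04e-08 by edgeR), a 3.89-fold rise and the larger of both rises. On log2(FPKM + 1) it was 0.96. Of its 3 tested neighbours, the adhesion gene Mpzl3 rose (0.32), the sodium channel subunit gene Scn4b fell to 2 counts over the PM2.5 libraries, against 236 over the PBS libraries, and Amica1 (0.15) did not pass. A processed pseudogene on the opposite strand, Gm20612, and the microRNA gene Mir7086 lie within Il10ra and could share reads with it.

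Il10rb (ENSMUSG00000022969, mm10 chromosome 16, 91406164 to 91425834, plus strand), the chain shared with the receptors of IL-22 and of the lambda interferons, had 575, 512 and 486 counts in PM2.5, against 510, 579 and 628 counts in PBS. In FPKM this was 4.00, 3.71 and 3.62 in PM2.5 and 4.36, 5.62 and 5.32 in PBS. The groups did not overlap, but PBS replicate 1 lay closer to the PM2.5 libraries than to the other PBS libraries. The log2 fold change was -0.37 (SE 0.09, 95% interval -0.58 to -0.16, adjusted p = 0.00546 by edgeR), a 1.29-fold fall. The spread within PBS was 13.0%, against 4.18% from counting alone, and within PM2.5 5.22% against 4.37%. The gene Gm21970 overlaps Il10rb on the same strand, with 123 counts over PM2.5 and 162 over PBS (-0.63, adjusted p = 0.0181 by edgeR), so reads can be shared, and it lost its call in 3 of 11 alternatives (adjusted p = 0.0592 to 0.0800).

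**Figure D3:**
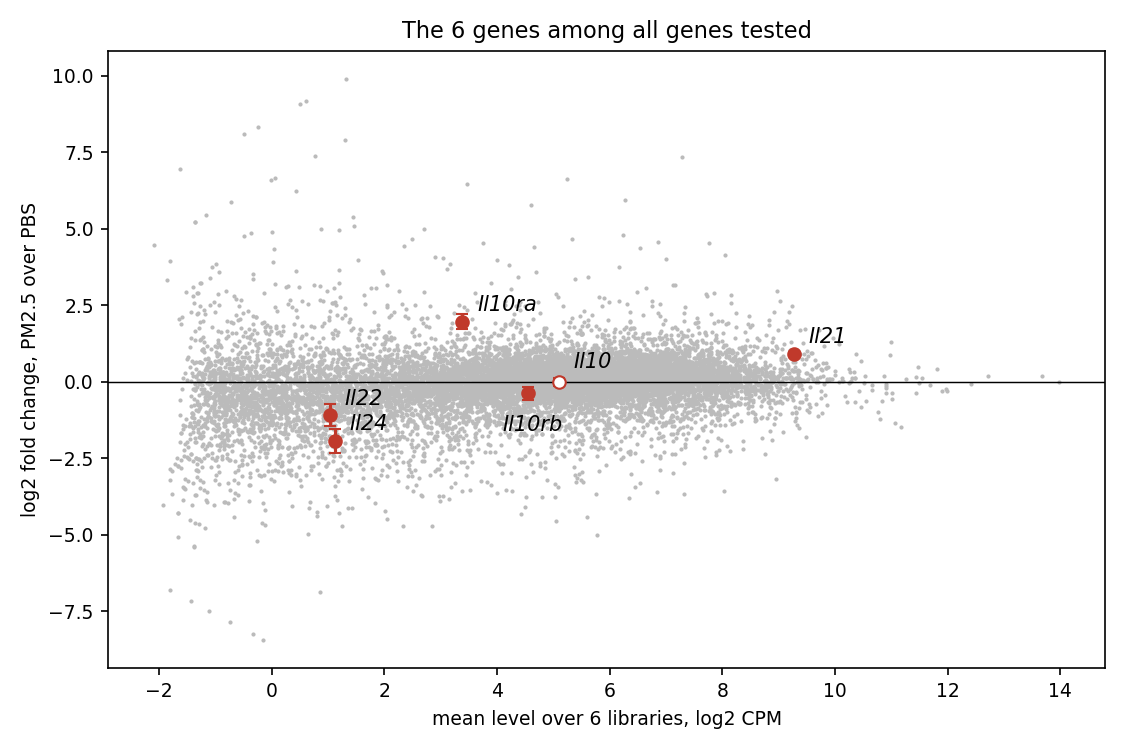
Log2 fold change (PM2.5 over PBS) of all 12967 genes tested (grey) against their mean level in log2 CPM over the 6 libraries, with the 6 genes in red and bars for their 95% intervals; filled points passed the adjusted p of 0.05. Il21 lies at the high end of the levels and Il22 and Il24 at the low end, Il10ra has the highest fold change of the 6 at 1.96 and Il24 the lowest at -1.93, and Il10 (open) lies on 0.

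Levels of different genes can be compared only per length, and the lengths implied by the deposited FPKM differ from the annotated exon lengths for many genes. For Il10 and Il22, with 1 transcript each, the length implied by the FPKM equals the GENCODE M21 exon length of 1310 and 1110 bases. For Il10ra the implied length was 8271 bases, 2.36 times the 3498 bases covered by its exons, and for Il24 it was 1.64 times. Of 10732 genes with several transcripts and over 100 counts, the implied length was longer than the exon union for 77.6%, and the median ratio was 1.30. Within 1%, the implied length matched the exon union for 1.38% of these genes, the summed transcripts for 5.55% and the longest transcript for 5.6%, so the rule behind it is unknown. A longer implied length gives a lower deposited FPKM, while comparisons of 1 gene between groups are not affected.

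On FPKM recalculated with the exon union as length, the order in PM2.5 was Il21 (150.2 ± 3.67), Il10 (25.6 ± 0.586), Il10rb (5.24 ± 0.274), Il10ra (4.66 ± 0.351), Il22 (1.154 ± 0.112) and Il24 (0.641 ± 0.0824; SD, n = 3). In PBS it was Il21 (83.3 ± 2.42), Il10 (27.0 ± 1.34), Il10rb (7.07 ± 0.913), Il22 (2.56 ± 0.0726), Il24 (2.56 ± 0.201) and Il10ra (1.25 ± 0.168; SD, n = 3). The SD ranges of Il10rb and Il10ra overlapped in PM2.5, as did those of Il22 and Il24 in PBS, and the other neighbours in these orders were apart. With this length, Il10ra was the least abundant of the 6 transcripts in PBS and close to its partner chain in PM2.5. In deposited FPKM it was also the lowest in PBS (0.527 ± 0.0710). In PM2.5, however, it stood apart from its partner there, at 1.97 ± 0.148 against 3.78 ± 0.197 for Il10rb (SD, n = 3). Whether both chains reached similar levels in PM2.5 therefore depends on the length used.

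The wider family was mostly silent. Of the 8 IL-10 family ligands, 3 were abundant enough to be tested, of which 2 fell, and Ifnl2 and Ifnl3, the genes of lambda interferons, had 0 counts like Il20. Of the 7 receptor chains of the family, 4 were tested, 3 rose and 1 fell, with a median log2 fold change of 0.88. These lists are short, and among all genes tested 35.2% rose and 35.3% fell. Il20rb, a chain of the receptors for IL-19, IL-20 and IL-24, had 127, 85 and 134 counts in PM2.5, against 48, 59 and 49 counts in PBS (0.91, SE 0.21, adjusted p = 0.00312 by edgeR). Ifnlr1, the lambda interferon receptor chain, had 17, 18 and 16 counts in PM2.5, against 9, 5 and 10 counts in PBS (0.85, adjusted p = 0.0342 by edgeR). Its call was lost without any single PM2.5 library and without PBS replicate 1 or 2 (adjusted p = 0.0611, 0.0858, 0.0621, 0.0642 and 0.108), among 8 of 11 alternatives (up to 0.216). Il22ra1 and Il22ra2, the receptor and the soluble inhibitor of IL-22, had 0 counts, and Il20ra had 0 counts over PM2.5 and 1 over PBS. The interferon receptor chains of the same structural class all fell, 4 of 4, against 35.3% of all genes tested. Ifngr1, the ligand-binding chain for IFN-gamma, averaged 38.9 ± 0.213 CPM in PM2.5 and 80.5 ± 1.76 CPM in PBS (SD, n = 3 each; -1.05). Ifnar2 (-0.33) and Ifnar1 (-0.14), the interferon-alpha receptor chains, and Ifngr2 (-0.12) flank Il10rb. Ifngr2 lost its call in 7 of 12 alternatives (adjusted p = 0.0587 to 0.146), including without any single PM2.5 library and without PBS replicate 1 or 2 (0.0659, 0.146, 0.0587, 0.0737 and 0.140).

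**Figure D4:**
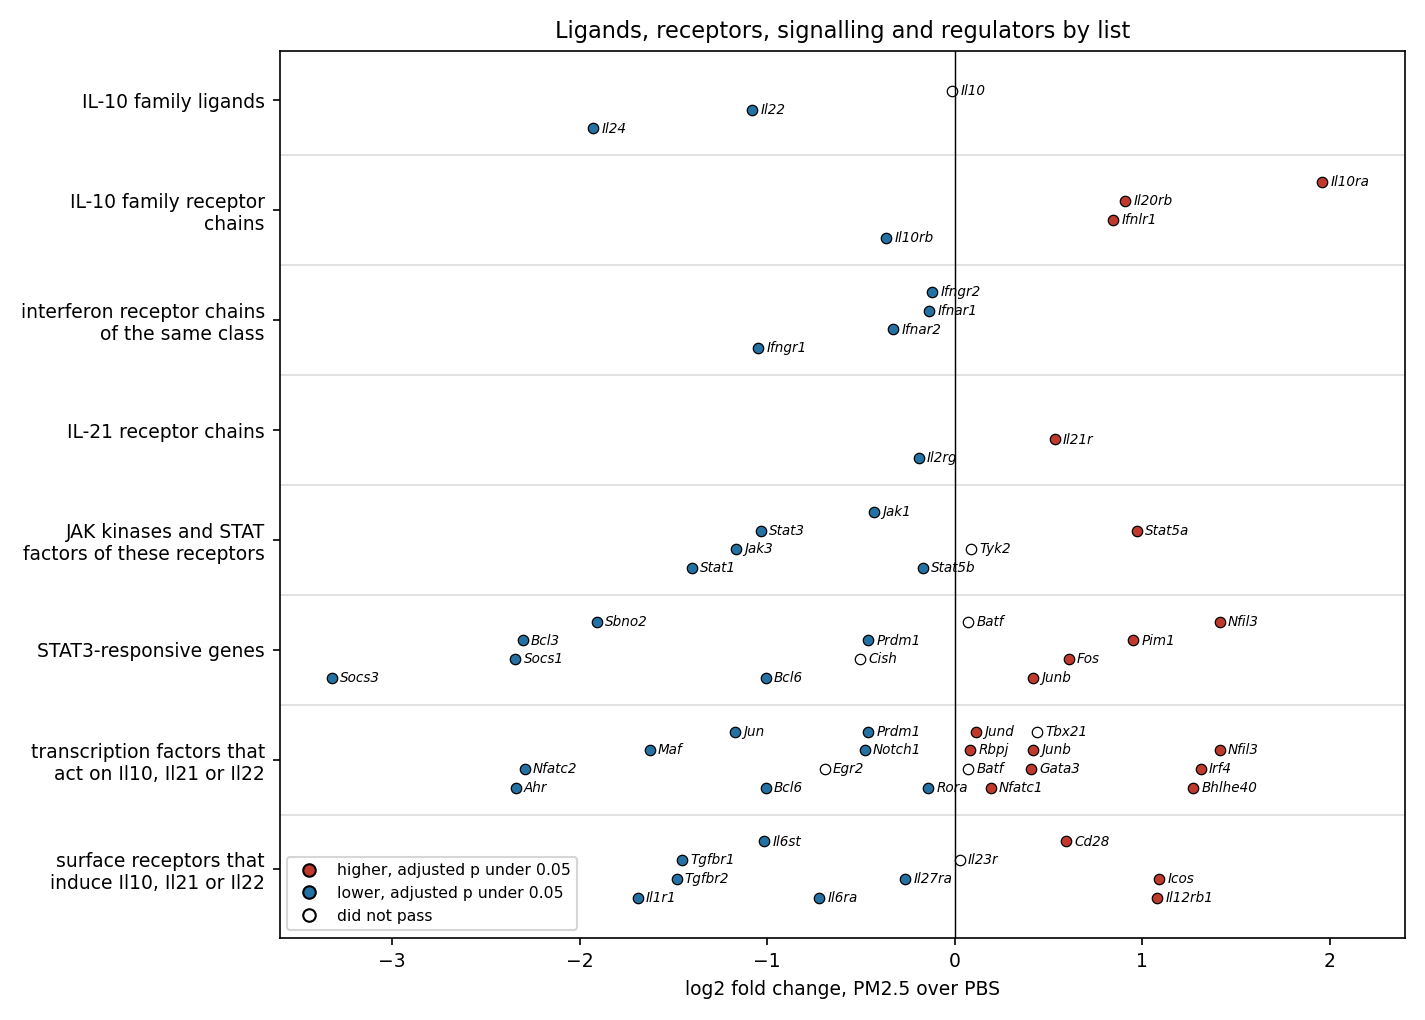
Log2 fold change (PM2.5 over PBS) of each tested gene by list, with red points for genes that rose, blue for genes that fell and open points for genes that did not pass; the vertical offsets within a list only separate labels. The points of most lists lie on both sides of 0, from Socs3 at -3.32 to Il10ra at 1.96, and the interferon receptor chains all lie below 0.

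The JAK and STAT genes of these receptors mostly fell. Of 7, 5 fell, 1 rose and 1 did not pass (median -0.43), where 35.3% of all genes tested fell and 35.2% rose. Stat3, the main messenger of IL-10, IL-21 and IL-22, averaged 415 ± 1.21 CPM in PM2.5 and 850 ± 21.9 CPM in PBS (SD, n = 3 each; -1.03), and Jak3, the kinase bound to the common gamma chain, fell by 1.17 on the log2 scale. Stat5a rose (0.97). Of 12 genes known to respond to STAT3, 4 rose, 6 fell and 2 did not pass (median -0.48), against the same shares over all genes. Socs3, the feedback inhibitor most used as a readout of STAT3, had 5.17, 4.99 and 4.96 FPKM in PM2.5, against 52.4, 52.3 and 53.3 FPKM in PBS (-3.32, SE 0.04, adjusted p = 3.15e-12 by edgeR). The feedback inhibitor Socs1 (-2.34), the NF-kB cofactor Bcl3 (-2.30) and Sbno2 (-1.91), a corepressor induced by IL-10, also fell. The kinase gene Pim1 (0.95) and the transcription factor genes Nfil3 (1.41), Fos (0.61) and Junb (0.42) rose. Prdm1, which encodes Blimp-1 (-0.46), passed by edgeR but not by DESeq2 (adjusted p = 0.113).

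Transcription factors that act on Il10, Il21 or Il22 were split. Of 19, 8 rose, 8 fell and 3 did not pass (median 0.07), where 35.2% of all genes tested rose and 35.3% fell. In all alternatives 5 of the rises and 7 of the falls held. Gata3, Jund and Rbpj were the rises that did not hold. Ahr, the receptor that promotes Il22 and Il10, had 7.16, 6.94 and 7.15 FPKM in PM2.5, against 38.3, 37.1 and 37.2 FPKM in PBS (-2.34). Maf, which promotes Il10 and Il21 and represses Il22, averaged 266 ± 2.92 CPM in PM2.5 and 820.2 ± 12.5 CPM in PBS (SD, n = 3 each; -1.63). The calcium-responsive factor Nfatc2 (-2.29), Bcl6 (-1.01) and Jun (-1.17) also fell. Irf4 (1.31), which promotes Il21 and Il10, rose with Nfil3 and with Bhlhe40 (1.27), a repressor of Il10. Batf (0.07), Tbx21 (0.44) and Egr2 (-0.69) did not pass. Egr2 passed in 6 alternatives (adjusted p = 0.000103 to 0.0441), and Tbx21 without PM2.5 replicate 3 (0.0377).

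Surface receptors that induce these cytokines were split as well, with 3 of 10 that rose, 6 that fell and 1 that did not pass (median -0.49). Over all genes tested the shares that rose and fell were 35.2% and 35.3%. The costimulatory receptor genes Icos (1.09) and Cd28 (0.59) and Il12rb1 (1.08), a chain of the IL-23 receptor, rose. The IL-6 receptor chains Il6ra (-0.72) and Il6st (-1.01), the TGF-beta receptor chains Tgfbr1 (-1.46) and Tgfbr2 (-1.48), the IL-27 receptor chain Il27ra (-0.26) and the IL-1 receptor Il1r1 (-1.69) fell. Il23r, the specific chain of the IL-23 receptor, had a log2 fold change of 0.03 (adjusted p = 0.773 by edgeR), which turned to between -0.04 and -0.03 with library totals, with the filter at 5 CPM, with limma on FPKM and without PBS replicate 3.

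For each of the 6 genes, the 2 genes with the most similar patterns over the 6 libraries are named here. Any relation of function between them was not tested. Likeness was the root mean square difference of log2 CPM centred over the 6 libraries, among 9308 candidate genes that averaged 5 CPM or more. For Il21 they were Farsb, a phenylalanine tRNA synthetase subunit (0.017), and Dock11, an activator of small GTPases (0.018). For Il10 they were Hacd3, an enzyme of fatty acid elongation (0.012), and Pex6, a peroxisomal ATPase (0.022). For Il10ra they were Ppan, of ribosome assembly (0.062), and Ncf1, a subunit of the phagocyte NADPH oxidase (0.075). For Il22 they were the centrosomal genes Cntrob (0.039) and Cep164 (0.061), for Il24 the T cell kinase gene Txk (0.067) and the proton pump subunit gene Atp6v0a1 (0.074), and for Il10rb Caprin2 (0.052) and Mterf2 (0.053). Over 6 libraries in 2 groups, this measure is small for any gene with a similar fold change and little spread.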

How the data were processed

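Raw counts per gene and FPKM were deposited by the authors in a single table of 34745 genes, per the file headers. The submitters' processing notes name TopHat2 2.0.6 and mm10. How reads were counted, with which annotation and strand setting, is not given in the sources used here. The deposited FPKM values equal counts divided by library total and 1 fixed length per gene. Genes were filtered with filterByExpr (minimum count 10, minimum total 15), scaled by TMM and tested with edgeR 4.0.16 in R 4.3.3 (glmQLFit, robust, two-sided quasi-likelihood F test, Benjamini-Hochberg over 12967 genes, threshold 0.05). CPM values of single genes are TMM-scaled, and marker sums and the counting limits are scaled by library totals. Each SE is the size of the log2 fold change divided by the root of its F. Alternatives were library totals, DESeq2 1.42.0, other filters, limma 3.58.1 on log2(FPKM + 1), the replicate block and leaving out each library. The named genes are the 6 genes, their lists, neighbours within 200 kb by lower coordinate, the 2 genes most alike and markers of other cells. Members and lists were chosen with earlier results of these data known. Il17a was named after its values were seen. A gene of these lists is not reported here and is left out of their counts and sums.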

Additional observations from a re-analysis of the deposited data

How the results depend on the processing

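Between 7342 and 9582 genes passed over the alternatives, against 9149 as reported. Leaving out each library gave 8777 to 8998 genes. Il21, Il22, Il24, Il10ra and Il10rb kept their direction and passed in each alternative that tested them, and the filter at a mean of 5 CPM removed Il22 and Il24. Without each library in turn, log2 fold changes were 0.89 to 0.94 for Il21, -1.15 to -1.01 for Il22, -2.01 to -1.83 for Il24, 1.86 to 2.03 for Il10ra and -0.47 to -0.29 for Il10rb. Il10 ranged from -0.054 to 0.022, above 0 without PM2.5 replicate 3 (0.011) and without PBS replicate 1 (0.022), and did not pass. Equal replicate numbers are not stated to pair the libraries. The correlations of deviations were 0.013, 0.0072 and 0.045 for equal numbers and -0.037 to 0.023 for unequal numbers. PM2.5 replicates 1 and 3 correlated best with the PBS library of the same number, and PM2.5 replicate 2 with PBS replicate 1. With 3 libraries per group, these values cannot settle whether the libraries are paired. With the replicate block 9003 genes passed, and none of the 6 genes changed its call. Library totals moved the median of all genes to -0.071, against -0.0072. Of 961 values of 81 other named genes, 891 kept direction and side, and the 8 that turned sign were Il23r (-0.038 with library totals, -0.040 with the filter at 5 CPM, -0.033 with limma, -0.037 without PBS replicate 3, and -0.037 to 0.097 over the left-out libraries) and Hacd3 (0.0044 without a filter, -0.044 to 0.034 over the left-out libraries), neither of which passed; the cause was not tested. Cish passed in 6 alternatives (0.0156 to 0.0478), and Gata3, Jund and Rbpj lost their calls in 7, 5 and 6 (0.0523 to 0.112, 0.0567 to 0.244 and 0.0591 to 0.571). Depth limits Il22 and Il24, which rest on 20 to 85 counts a library.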

Other observations

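In the marker lists of B cells, dendritic cells and NK cells, 1 gene of each rose while other genes of the same list fell or were near 0. These genes were chosen after their values were seen. Ebf1, a B cell factor, had 1654 counts over the PM2.5 libraries and 231 over the PBS libraries (log2 fold change 2.61), while Cd79b, a chain of the B cell receptor, had 9 counts over PM2.5 and 48 over PBS (-2.59). Pax5, another B cell factor, had 2, 0 and 0 counts in PM2.5, against 8, 5 and 8 counts in PBS, too few to be tested. Zbtb46, a dendritic cell factor, had 206 counts over PM2.5 and 30 over PBS (2.54), while Itgax had 18 over PM2.5 and 35 over PBS (-1.17), a call lost in 2 of 11 alternatives (adjusted p = 0.0561 and 0.134). Eomes, a factor of NK and cytotoxic T cells, had 75 counts over PM2.5 and 5 over PBS (3.58), while the NK receptor gene Klrd1 had 548 over PM2.5 and 2500 over PBS (-2.43). Ebf1, Cd79b, Zbtb46, Itgax, Eomes and Klrd1 passed an adjusted p of 0.05 by edgeR.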
